A study of Mus musculus with 2 samples.

Results

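The genes described here encode the chains of mouse MHC class I molecules and a subunit of the peptide transporter that feeds them. They were chosen by symbol and number 10 of 55536 annotated gene rows: the heavy chain genes H2-K1, H2-D1, H2-Q4, H2-Q6, H2-Q7, H2-T22, H2-T23 and H2-M3, the light chain gene B2m and the transporter gene Tap1. All 10 were found in both libraries. The libraries are bulk total RNA-seq, depleted of ribosomal RNA, of the nucleoplasmic fraction of bone marrow-derived macrophages, primary cells grown from the marrow of C57BL/6J mice. Both came from cells exposed to Lipid A, the membrane anchor of bacterial lipopolysaccharide and a ligand of the receptor TLR4, at 100 ng/ml for 50 min. There was 1 group of 2 biological replicates and no untreated or whole-cell library in the data used here, so no effect of Lipid A and no enrichment in the nucleus can be read from any value. The labels name the fraction nucleoplasmic in one field and nuclear in another, give both libraries the same donor identifier, and give no age or sex. Replicate 1 was made from 500 ng of RNA and replicate 2 from 1 µg.

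Class I molecules display peptides from inside the cell to CD8+ T cells and natural killer cells. A heavy chain pairs with beta-2-microglobulin in the endoplasmic reticulum, where a loading complex holds it beside the TAP transporter until a peptide cut by the proteasome and carried in by TAP binds its groove. The groove is built from the alpha1 and alpha2 domains of the heavy chain, and the alpha3 domain below it contacts beta-2-microglobulin and CD8. H2-K1 and H2-D1 are the classical genes, with broad peptide repertoires, whereas the Q, T and M genes are nonclassical. Most nucleated cells express class I genes, and interferons raise their transcription.

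The heavy chain genes are paralogs, and how alike their transcripts are bears on every value below. The following 75-base windows come from the alpha3 exon, the fourth coding exon, at the place where the 8 heavy chain genes are most alike. Sequences were read from the GENCODE M21 transcripts of mm10, and capitals mark bases that differ from H2-K1.

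H2-K1 (chr17:33997359-33997433, minus strand): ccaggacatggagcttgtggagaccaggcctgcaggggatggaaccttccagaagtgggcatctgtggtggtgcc
H2-D1 (chr17:35265911-35265985, plus strand): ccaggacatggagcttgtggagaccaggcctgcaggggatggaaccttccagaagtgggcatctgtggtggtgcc
H2-Q4 (chr17:35382985-35383059, plus strand): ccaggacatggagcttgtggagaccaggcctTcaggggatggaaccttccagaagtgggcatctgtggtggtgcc
H2-Q6 (chr17:35427991-35428065, plus strand): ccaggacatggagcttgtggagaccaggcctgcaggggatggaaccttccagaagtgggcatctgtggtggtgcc
H2-Q7 (chr17:35442394-35442468, plus strand): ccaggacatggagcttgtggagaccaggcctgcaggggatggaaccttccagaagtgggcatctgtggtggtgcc
H2-T22 (chr17:36040552-36040626, minus strand): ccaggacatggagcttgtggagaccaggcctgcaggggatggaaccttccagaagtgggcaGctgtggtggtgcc
H2-T23 (chr17:36030896-36030970, minus strand): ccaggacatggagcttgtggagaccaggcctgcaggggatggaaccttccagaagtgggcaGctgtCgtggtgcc
H2-M3 (chr17:37272396-37272470, plus strand): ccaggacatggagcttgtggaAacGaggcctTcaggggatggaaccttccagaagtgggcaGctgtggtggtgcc

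The windows of H2-D1, H2-Q6 and H2-Q7 were identical to that of H2-K1, and the same 75 bases also occur in transcripts of H2-Q1 and the predicted gene Gm8909. H2-Q4 and H2-T22 differed from H2-K1 at 1 base, H2-T23 at 2 bases and H2-M3, the most distant, at 4 bases. A read lying inside this window cannot be placed in 1 gene among the 4 identical members. The contrast is the alpha1 exon, the second coding exon, which forms one wall of the peptide groove. The windows below are those where the genes were least alike over 75 bases (H2-T22 is left out because its exon has another length). The annotated H2-Q4 exon starts further upstream than the others, and that extra start was cut off before the comparison.

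H2-K1 (chr17:33999870-33999944, minus strand): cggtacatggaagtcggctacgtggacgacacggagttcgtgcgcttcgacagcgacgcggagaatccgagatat
H2-D1 (chr17:35263438-35263512, plus strand): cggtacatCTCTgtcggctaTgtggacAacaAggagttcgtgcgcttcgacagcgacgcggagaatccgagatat
H2-Q4 (chr17:35379963-35380037, plus strand): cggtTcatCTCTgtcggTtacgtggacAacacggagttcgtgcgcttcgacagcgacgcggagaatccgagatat
H2-Q6 (chr17:35425167-35425241, plus strand): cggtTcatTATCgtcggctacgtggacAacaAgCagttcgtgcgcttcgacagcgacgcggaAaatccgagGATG
H2-Q7 (chr17:35439511-35439585, plus strand): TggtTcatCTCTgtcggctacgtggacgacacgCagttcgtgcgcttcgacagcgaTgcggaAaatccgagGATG
H2-T23 (chr17:36032289-36032363, minus strand): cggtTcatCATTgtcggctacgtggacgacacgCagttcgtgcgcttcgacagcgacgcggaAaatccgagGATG
H2-M3 (chr17:37270581-37270655, plus strand): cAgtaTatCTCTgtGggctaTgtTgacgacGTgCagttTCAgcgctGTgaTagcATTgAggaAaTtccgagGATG

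No alpha1 window occurred in a transcript of another gene. H2-D1 and H2-Q4 each differed from H2-K1 at 7 of the 75 bases, H2-T23 at 11, H2-Q6 and H2-Q7 at 13, and H2-M3 at 28. Over the whole exon, H2-K1 and H2-D1 were 96.0% identical in alpha3 (276 bases) and 91.1% in alpha1 (270 bases). H2-Q6 and H2-Q7 were the closest pair in both exons, with 99.3% identity in alpha3 (2 bases apart) and 93.0% in alpha1.

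Sharing over whole transcripts was measured as the percent of a gene's distinct 75-base words that also occur, on the same strand, in transcripts of another gene. The highest shares were 18.5% in H2-T22, 17.9% in H2-Q6 and 16.95% in H2-Q7. The main partner of H2-T22 was H2-T10, a near copy that holds 15.7% of its words, while H2-Q7 holds 9.80% of the words of H2-Q6. H2-Q4 (7.02%), H2-T23 (5.91%), H2-D1 (5.40%) and H2-K1 (3.10%) shared less, and H2-M3, B2m and Tap1 shared none. The length of the reads is not given in the sources used here. With words of 31 bases the share rose to between 22.8% (H2-K1) and 51.0% (H2-T22) for the 7 genes that shared 75-base words, and with words of 100 bases it was at most 12.0% (H2-Q7).

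The deposited tables give, for each gene, the SD of its count that comes from uncertain placement of reads. In H2-T22 this SD was 0.955% of the count in replicate 1 and 0.872% in replicate 2. It was 0.361% and 0.447% in H2-Q6, and 0.269% and 0.236% in H2-Q7. The 3 genes with the most shared words thus had the largest placement SD, and the other 7 members were at 0.175% or below. No member exceeded 1% in both libraries, against 8.59% of 9158 protein-coding genes with a mean of at least 1 transcript per 1000000 (TPM, a level per unit of transcript length). The median of those genes was 0 in both libraries, and of the members only H2-M3 and B2m were at 0 in both. Placement was therefore not surer in the members than in the median gene. The placement SD covers placement within the authors' model only and says nothing of the spread between libraries.

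**Figure D1:**
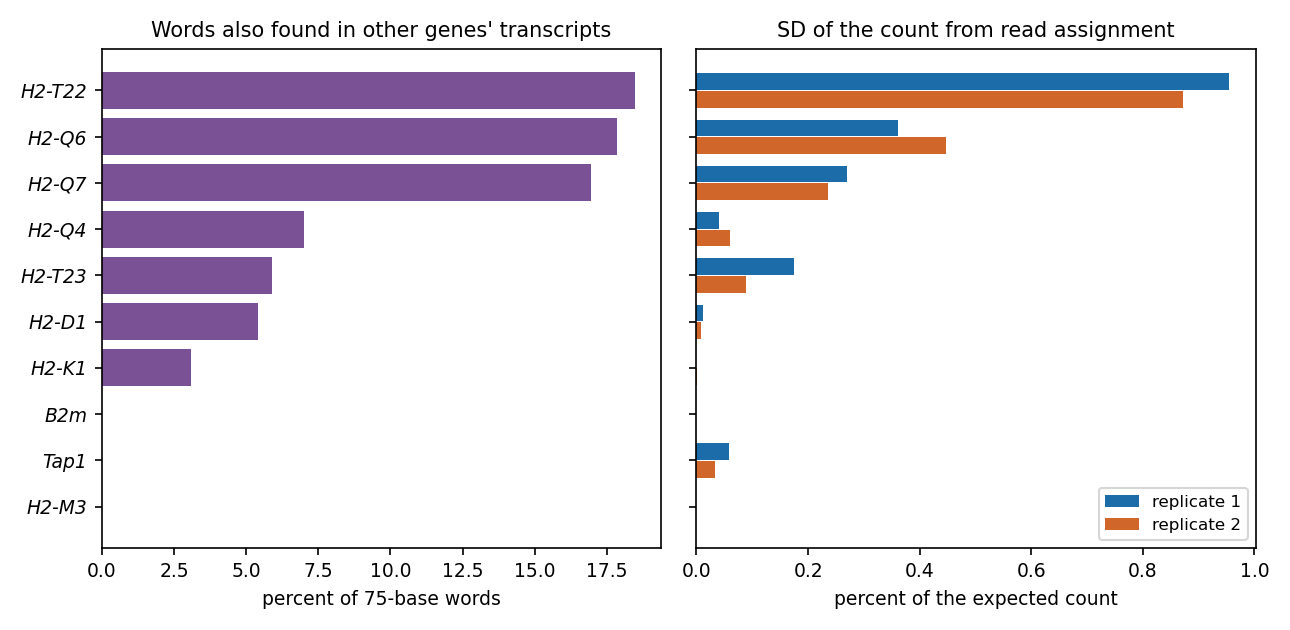
Left, percent of each member's distinct 75-base words that occur in transcripts of other genes; right, SD of the expected count from read placement, as a percent of the count, in each library. H2-T22, H2-Q6 and H2-Q7 lie highest in both panels, and H2-M3 and B2m are at 0 in both.

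The libraries held 10342882 counts (replicate 1) and 20495545 counts (replicate 2) over gene rows, so the 3 counts that a count of 0 allows correspond to 0.290 and 0.146 counts per 1000000 (CPM). Protein-coding genes of the nuclear genome made up 26.2% of the TPM total of replicate 1 and 17.035% of that of replicate 2, and the median gene was lower in replicate 2 by a log2 TPM ratio of -0.69. Ratios between the replicates are therefore given after subtracting that median. Of 8 macrophage markers, 8 were at 10 TPM or more in each library, from 23.7 to 1507 TPM, against 13.2% of 22015 protein-coding genes. Markers of T and NK cells, B cells, neutrophils, dendritic cells and stromal or endothelial cells numbered 24. Of these, 1 was at 1 TPM or more in both, against 8523 of 22015 protein-coding genes. The summed level of the 24 markers was 6.46 and 5.44 TPM. In such bulk libraries, fewer cells of a type and less RNA per cell cannot be told apart. Values are TPM from the gene tables unless stated, given as mean ± SD over n = 2 libraries. No test was run, because 1 group of 2 libraries allows none, and the SD describes the spread between these libraries only.

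The 10 members together held 3906 TPM in replicate 1 against 2862 TPM in replicate 2 (3384 ± 738). All but H2-T22, 9 members, were at 10 TPM or more in each library, against 13.2% of 22015 protein-coding genes. The classical pair dominated: H2-K1 and H2-D1 held 91.2% and 90.5% of the summed TPM of the 8 heavy chain genes. Of their summed counts, which take no account of length, the pair held 83.7% and 85.9%. In order of mean level the genes ran H2-K1, H2-D1, B2m, H2-Q4, H2-T23, H2-Q7, H2-Q6, Tap1, H2-M3 and H2-T22. The 2-library ranges of neighbours in this order overlapped for H2-K1 with H2-D1 and for H2-Q7 with H2-Q6, and for no other neighbours. The order also depended on the quantification. In the second one deposited, described below, H2-Q7 lay above H2-T23 and H2-M3 above Tap1 by mean level. On coding isoforms alone, H2-Q7 was at place 10 in replicate 1 and 9 in replicate 2.

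**Figure D2:**
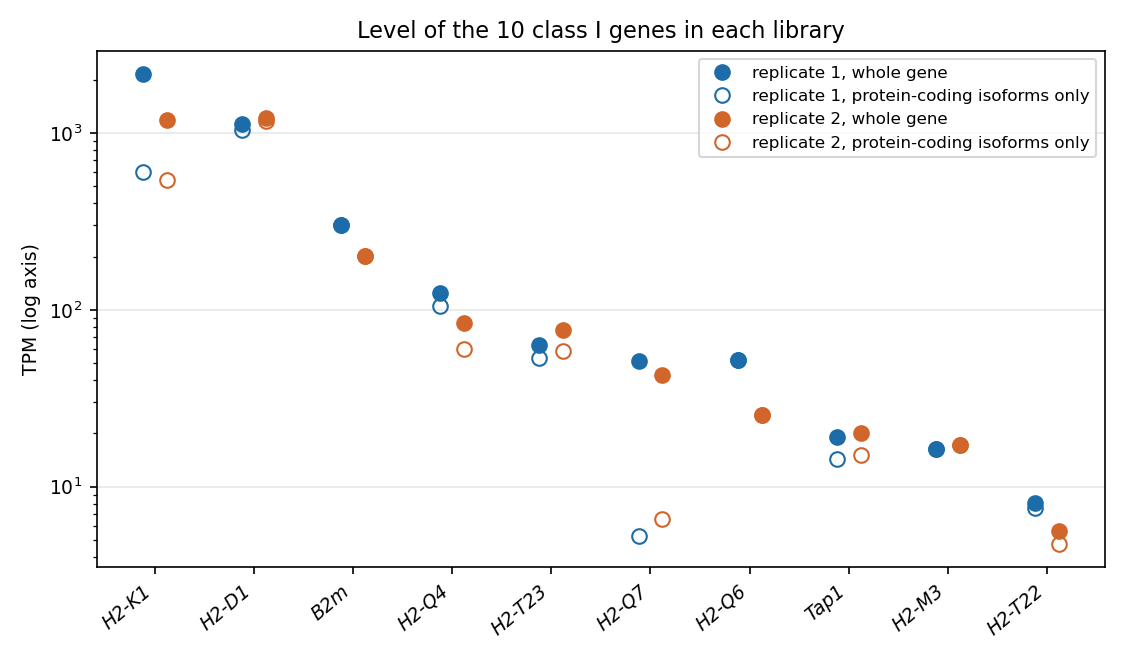
TPM (log axis) of each member in replicate 1 and replicate 2, for the whole gene (filled) and for its protein-coding isoforms alone (open). Levels run from 2149 TPM (H2-K1, replicate 1) to 5.58 TPM (H2-T22, replicate 2); filled and open points lie furthest apart for H2-Q7 and H2-K1.

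H2-K1 (ENSMUSG00000061232.16, mm10 chr17:33996017-34000347, minus strand) encodes the classical heavy chain K. It stood at 2149 TPM in replicate 1 against 1178 TPM in replicate 2, 1664 ± 686 TPM. Among 22015 protein-coding genes it ranked 5 and 9. Its counts were 14204 and 34852, or 1373 and 1700.5 CPM, so that the TPM was higher in replicate 1 and the CPM in replicate 2. The length to which its TPM is normalized, an average over its 16 isoforms weighted by their abundance, was 588 bases in replicate 1 and 872 bases in replicate 2.

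The gap in TPM between the libraries was no larger than that of 1 isoform. H2-K1-215, a fragment of 457 bases annotated as a retained intron, stood at 1409 TPM in replicate 1 against 337 TPM in replicate 2, or 65.5% and 28.6% of the TPM of the gene. By expected counts it was a smaller part, 3749 and 3095 counts, or 26.4% and 8.88% of the gene. Of its 457 bases, 369 lie in the 3′ UTR and 68 in the coding sequence of H2-K1-201, the main coding isoform, and 20 lie in intron 6. Those 20 bases, in capitals below, are what sets the fragment apart; in H2-K1-201 the same exon 7 is joined to the end of exon 6.

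H2-K1-215 (chr17:33996616-33996674, minus strand): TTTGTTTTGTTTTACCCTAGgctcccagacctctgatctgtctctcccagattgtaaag
H2-K1-201 (chr17:33996616-33996846, minus strand): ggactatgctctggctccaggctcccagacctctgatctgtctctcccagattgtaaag

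The capitals end in AG, the usual end of an intron, at the border with exon 7 (chr17:33996655-33996826 is the intron, 172 bases long). Of the 75-base words of H2-K1-215, 18 (4.70%) are found in no other transcript of the annotation, and 95.3% also occur in other H2-K1 isoforms. Its count therefore rests largely on reads that the last exon of the coding isoforms could also have given. Its effective length, the number of positions at which a fragment can start, was 237 bases in replicate 1 and 271 in replicate 2, against 1399 and 1432 for H2-K1-201. Without H2-K1-215, an alternative chosen after its values were seen, H2-K1 was at 741 and 841 TPM (791 ± 71.1), below H2-D1 in both libraries. The counts of H2-K1-215 were dropped there and not given to other isoforms, while H2-D1 kept all of its own. That lowers H2-K1 by construction, and more so in replicate 1.

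H2-K1-201, of 1619 bases, was at 497 and 400.1 TPM and held 55.0% and 55.8% of the counts of the gene. The third isoform by mean level, H2-K1-214, another retained-intron model of 504 bases, stood at 41.7 TPM in replicate 1 against 131 TPM in replicate 2, the opposite direction to H2-K1-215. Over all protein-coding isoforms H2-K1 was at 598 and 540.3 TPM. The whole-gene values lay 1.82-fold apart before scaling to the median gene.

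H2-D1 (ENSMUSG00000073411.11, chr17:35262730-35267499, plus strand) encodes the classical heavy chain D. It stood at 1121 TPM in replicate 1 against 1210.1 TPM in replicate 2, 1166 ± 63.0 TPM, and its counts were 19895 and 60096. The libraries lay 1.08-fold apart as deposited and 1.74-fold apart, with replicate 2 the higher, after scaling to the median gene. H2-D1 ranked 13 and 7 among protein-coding genes. The coding isoform H2-D1-202 held 80.9% and 72.9% of its TPM (907 and 883 TPM) and 96.4% and 95.4% of its counts. H2-D1-203, a coding model of 391 bases with no 75-base word of its own, was at 116 and 259 TPM but held only 1.12% and 3.01% of the counts. H2-D1-204, a retained-intron model, was at 83.3 and 44.9 TPM.

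Which classical gene was higher depended on the scale. The ratio of H2-K1 to H2-D1 was 1.92 in replicate 1 and 0.974 in replicate 2 on whole-gene TPM. On the TPM of coding isoforms alone it was 0.577 and 0.464, so H2-D1 was the higher in both libraries there. The ratio of CPM, which takes no account of length, was 0.714 and 0.580.

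B2m (ENSMUSG00000060802.8, chr2:122147686-122153083, plus strand) encodes beta-2-microglobulin, the light chain shared by these heavy chains, and is the only member outside chromosome 17. It was at 300.4 and 202 TPM, 251 ± 69.7 TPM, with 2159 and 4605 counts on its single annotated isoform. Patl2 overlaps it on the opposite strand and was at 0.36 and 0.10 TPM. The strand setting of the counting is not given in the sources used here, so reads of overlapping genes may not be told apart. The 8 heavy chain genes summed to 11.9 times the TPM of B2m in replicate 1 and 13.1 times in replicate 2, and their coding isoforms to 6.24 and 9.31 times. The summed coding-isoform level of the heavy chains itself was 1875 and 1878 TPM before scaling to the median gene. Because the log2 TPM ratio of that gene was -0.69, replicate 2 was the higher after scaling.

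H2-Q4, H2-Q6 and H2-Q7 are the nonclassical Q genes of the set. H2-Q7 encodes the Qa-2 antigen, which can be anchored in the membrane by a lipid. H2-Q4 (ENSMUSG00000035929.11, chr17:35379617-35385290, plus strand) was the highest of them at 125 and 83.8 TPM, 104 ± 29.2 TPM, with 2395 and 5208 counts. H2-Q6 (ENSMUSG00000073409.12, chr17:35424850-35430055, plus strand) was at 52.25 and 25.5 TPM, 38.9 ± 18.9 TPM, with 1095 and 1641 counts. That 2.05-fold gap was the widest between replicates among the members before scaling. H2-Q7 (ENSMUSG00000060550.16, chr17:35439155-35443773, plus strand) was at 51.5 and 42.7 TPM, 47.1 ± 6.22 TPM, with 1818 and 3960 counts. The order of H2-Q6 and H2-Q7 differed between the libraries, with H2-Q6 the higher in replicate 1 by a small margin and H2-Q7 in replicate 2.

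H2-Q6 and H2-Q7 differ in the isoforms annotated for them. All those of H2-Q6 are coding, so its coding share was fixed by the annotation, and H2-Q6-202 held all its TPM in both libraries. In H2-Q7, coding isoforms were at only 5.27 and 6.55 TPM, and 89.8% and 84.7% of the TPM lay in retained-intron models. The main one, H2-Q7-206, of 4209 bases, was at 36.4 and 23.7 TPM and held 89.8% and 81.6% of the counts of the gene. It keeps, among others, the whole of intron 3 (chr17:35440185-35442266, 2082 bases), and 50.0% of its 75-base words are found in no other transcript. Unlike H2-K1-215, it thus has much sequence of its own. H2-Q7-205 was at 9.84 and 12.5 TPM, and H2-Q7-201, the highest coding isoform, at 4.76 and 6.01 TPM.

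H2-T23, H2-T22 and H2-M3 are the nonclassical genes of the T and M regions. H2-T23 encodes Qa-1, which presents leader peptides of other class I chains to receptors of natural killer cells. H2-T23 (ENSMUSG00000067212.8, chr17:36029773-36032855, minus strand) was at 63.4 and 77.0 TPM, 70.2 ± 9.63 TPM, with 966 and 3740 counts. It was the member with the largest shift toward replicate 2. The coding isoform H2-T23-201 was at 53.2 and 58.3 TPM, followed by the retained-intron models H2-T23-204 (6.40 and 11.5 TPM) and H2-T23-202 (3.35 and 5.89 TPM). H2-M3 encodes a heavy chain that presents peptides starting with N-formylmethionine, as bacterial and mitochondrial proteins do. H2-M3 (ENSMUSG00000016206.6, chr17:37270220-37274484, plus strand) was at 16.3 and 17.2 TPM, 16.7 ± 0.622 TPM, with 223 and 729 counts, all on 1 coding isoform.

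H2-T22 encodes a heavy chain recognized by a subset of gamma-delta T cells. H2-T22 (ENSMUSG00000056116.18, chr17:36037128-36042747, minus strand) was the lowest member at 8.12 and 5.58 TPM, 6.85 ± 1.80 TPM, with 145 and 319 counts. Its coding isoforms H2-T22-202 (5.68 and 3.17 TPM) and H2-T22-203 (1.86 and 1.58 TPM) made up most of it. H2-T10, its near copy, was at 1.68 and 0.77 TPM. Reads of the stretches that both share could fall on either gene, and the sum of both was below 10 TPM in each library. The antisense gene A930015D03Rik, which overlaps H2-T22 and H2-T23, had 0 counts in both libraries.

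Tap1 encodes 1 subunit of the peptide transporter. Tap1 (ENSMUSG00000037321.17, chr17:34187553-34197225, plus strand) was at 19.2 and 20.15 TPM, 19.7 ± 0.70 TPM, with 547 and 1842 counts. Its coding isoforms Tap1-206 (10.6 and 11.4 TPM) and Tap1-201 (3.76 and 3.74 TPM) were followed by the retained-intron model Tap1-205 (1.48 and 1.64 TPM). Psmb9, an immunoproteasome gene on the opposite strand, overlaps Tap1 by 212 bases and was at 2.68 and 3.05 TPM.

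Isoforms not annotated as protein-coding were a large part of some members and absent from others. The 10 genes have 48 annotated isoforms, of which 21 are noncoding and 19 of these are retained-intron models; 5 isoforms had 0 counts in both libraries. Over 25% of the TPM lay in noncoding isoforms in both libraries for 3 of the 7 members that have such isoforms, H2-K1, H2-Q7 and Tap1. The same was true of 51.4% of 7683 protein-coding genes with such an isoform, so this count does not set the members apart. H2-K1 was at 72.2% and 54.1%, and Tap1 at 25.03% and 25.1%, just past the line in both libraries. Next below, and past the line in at most 1 library, H2-Q4 was at 16.4% and 28.2% and H2-T23 at 16.1% and 24.3%. H2-D1 was at 7.43% and 3.71%, and H2-T22 at 7.14% and 15.0%. H2-Q6, H2-M3 and B2m have coding isoforms only. In nuclear RNA, reads of unspliced transcripts would also count toward retained-intron models, and how many did was not tested.

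By expected counts, with no length correction, the share of noncoding isoforms was 36.0% and 28.2% in H2-K1, 96.0% and 92.8% in H2-Q7 and 22.03% and 25.5% in Tap1. Length correction thus raised the share of H2-K1 and lowered that of H2-Q7, whose retained-intron model is longer than its coding isoforms. The borders between exon (lower case) and intron (capitals) kept by 4 of these isoforms follow, because these bases set them apart from the main coding isoform. Other retained-intron models of the same gene can hold them too: 2.19% of the 75-base words of H2-T23-204 are found in no other transcript.

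H2-Q7-206 (chr17:35440155-35440214, plus strand): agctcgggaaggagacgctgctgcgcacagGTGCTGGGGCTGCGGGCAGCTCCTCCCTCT
H2-Q4-202 (chr17:35380144-35380203, plus strand): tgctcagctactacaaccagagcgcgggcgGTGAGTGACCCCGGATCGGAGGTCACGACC
H2-T23-204 (chr17:36031068-36031127, minus strand): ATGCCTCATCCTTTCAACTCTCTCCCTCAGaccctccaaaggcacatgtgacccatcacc
H2-D1-204 (chr17:35265754-35265813, plus strand): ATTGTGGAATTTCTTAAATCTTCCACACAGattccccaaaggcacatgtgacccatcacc

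The capitals of H2-Q7-206 and H2-Q4-202 begin with GT, the usual start of an intron, and those of H2-T23-204 and H2-D1-204 end in AG, its usual end. H2-Q7-206 keeps all 2082 bases of intron 3, H2-Q4-202 all 187 bases of intron 2 and H2-T23-204 all 540 bases of intron 3 of the coding isoform. H2-D1-204 holds 307 of the 1669 bases of intron 3 and so begins inside it. H2-Q4-202 was at 20.5 and 23.6 TPM, against 104 and 60.2 TPM of the coding isoform H2-Q4-201.

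**Figure D3:**
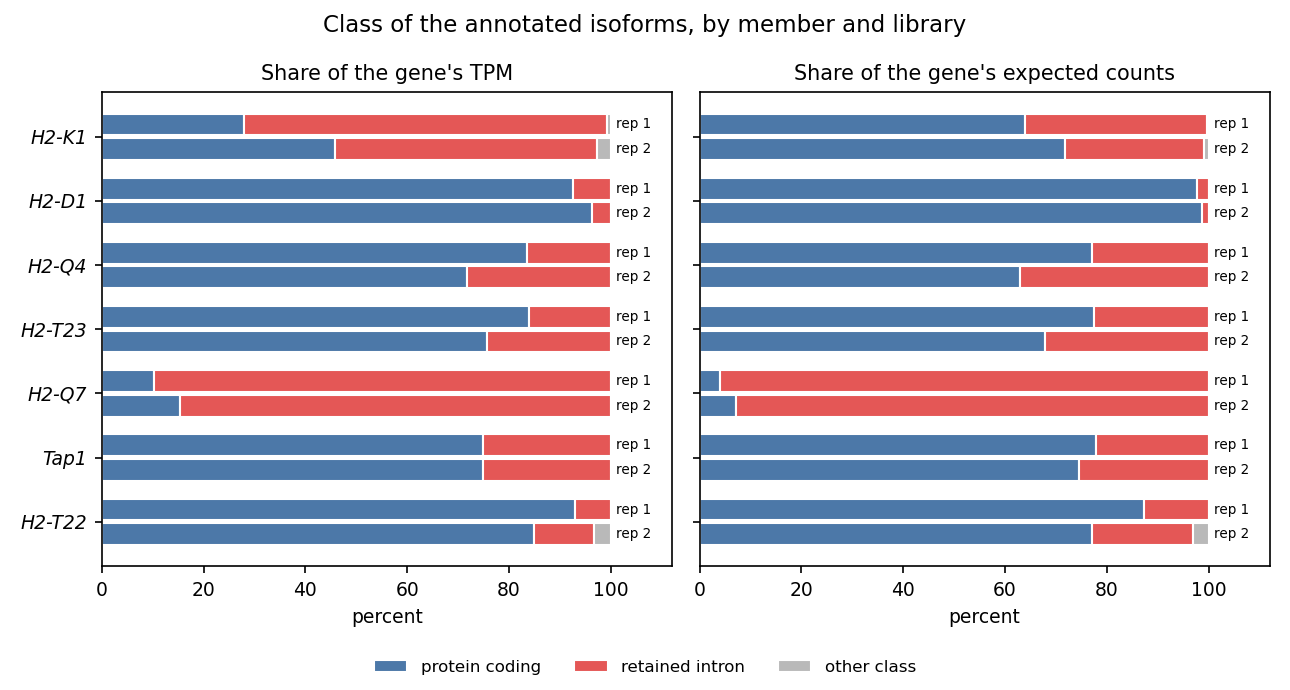
Share of each gene's TPM (left) and expected counts (right) in isoforms annotated as protein coding, retained intron or another class, in replicate 1 (rep 1) and replicate 2 (rep 2), for the 7 members with an isoform that is not protein coding. Retained-intron models hold most of H2-Q7 in both panels, and a larger part of H2-K1 by TPM (left) than by counts (right).

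After scaling to the median gene, 0 of 10 members differed beyond 2-fold between the replicates, against 9.90% of 11380 genes with a mean of at least 1 TPM. Above the median ratio of replicate 2 over replicate 1 lay 8 of 10 members, against 50.0% of all those genes and 52.6% of the protein-coding ones. The scaled log2 ratio was highest in H2-T23 (0.97), H2-D1 (0.80), H2-M3 (0.77) and Tap1 (0.76). H2-Q7 (0.42), H2-T22 (0.15), B2m (0.12) and H2-Q4 (0.11) lay nearer the median gene. H2-K1 (-0.17) and H2-Q6 (-0.34) lay below it. The median over the 10 members was 0.29, and over protein-coding genes with at least 1 TPM 0.03.

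The sign of H2-K1 depended on the scale. With all counts kept, its scaled log2 ratio was 0.39 on CPM and 0.42 with TMM scaling. With H2-K1-215 and its counts dropped, the ratio on TPM was 0.88. That rise is fixed by construction, because the drop removes 26.4% of the counts of the gene in replicate 1 and 8.88% in replicate 2. It therefore does not show what set the sign. H2-Q6 stayed below the median gene on CPM (-0.32) and in the other deposited quantification (-0.05). H2-T23 lay close to the 2-fold line and crossed it on 3 other scales, at 1.10 in the other quantification, 1.05 on CPM and 1.08 with TMM scaling.

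**Figure D4:**
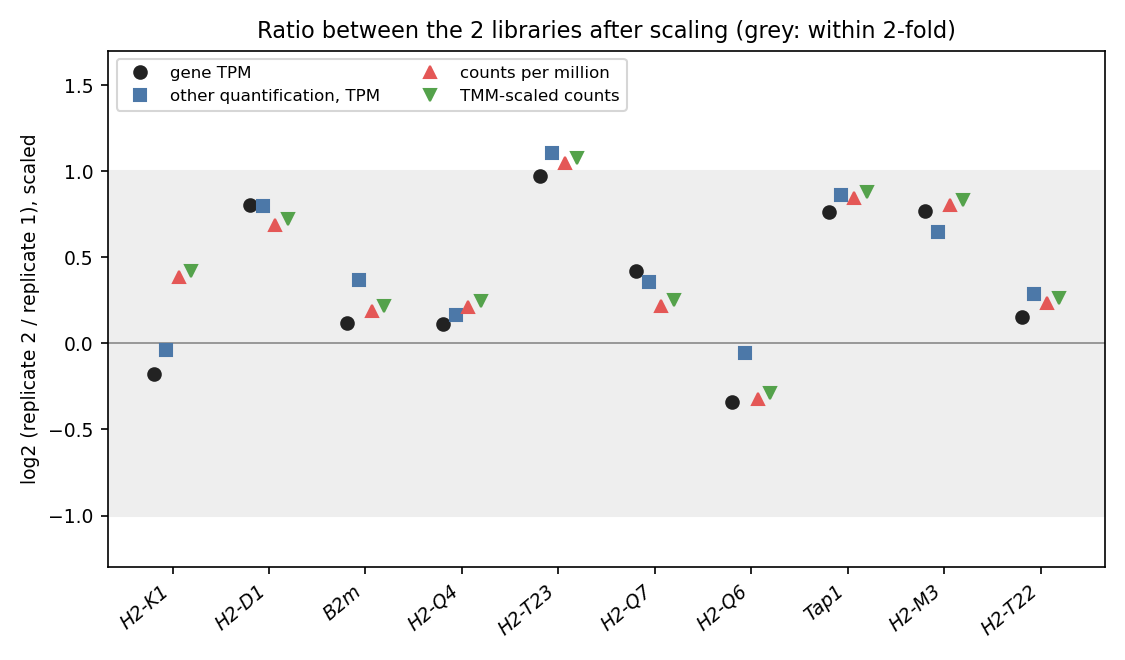
Scaled log2 ratio of replicate 2 over replicate 1 for each member on 4 scales; the grey band spans ratios within 2-fold. H2-T23 lies at the upper edge of the band on all 4 scales, H2-Q6 is below 0 on all 4, and H2-K1 changes sign between the TPM scales and the count scales.

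Each library was also quantified a second way by the authors, from reads against an index rather than from alignments. After scaling to the median of protein-coding genes, 0 of 10 members differed beyond 1.5-fold in the same direction in both libraries, against 11.7% of 9137 such genes. The scaled fold of the second quantification over the first ran from 0.690 (H2-K1) to 1.22 (H2-M3) in replicate 1 and from 0.680 (H2-K1 and H2-D1) to 1.01 (H2-M3) in replicate 2. Only H2-M3 lay above the median gene in both, against 40.8% of protein-coding genes. The second quantification gave H2-Q7 4923 and 7041 counts, where the first gave 1818 and 3960, but it placed more counts overall (19674642 and 28967125). After scaling, H2-Q7 was at 1.11 and 0.950 times the first in TPM, and at 1.49 and 1.35 times on CPM. H2-K1-215 held 64.7% and 20.6% of H2-K1 TPM there, so its lower share in replicate 2 appeared in both quantifications.

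The other genes of the pathway were taken from 3 lists by role, loading, immunoproteasome and transcription. Each of the 21 genes reached 1 TPM in both libraries, against 8523 of 22015 protein-coding genes. Of the 21, 12 reached 10 TPM, against 13.2% of those 22015. Between replicates 2 of 21 differed beyond 2-fold after scaling, against 9.90% of 11380 genes with a mean of at least 1 TPM. These were Psmb10 (1.54 on the log2 scale) and Psme2 (1.09), and their count does not set the lists apart.

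In the loading list, the chaperone Calr was at 202 and 163 TPM, and Tapbp, the tapasin that bridges heavy chain and transporter, at 152 and 162 TPM. The chaperone Canx was at 166 and 98.1 TPM and the thiol oxidoreductase Pdia3 at 51.4 and 42.1 TPM. These 4 lay above Tap1 in both libraries. Tap2, the other transporter subunit, was at 12.5 and 13.0 TPM, below Tap1 in both libraries. Most of the TPM of Tap2, 77.4% and 83.1%, lay in isoforms not annotated as protein-coding, against 25.03% and 25.1% for Tap1. In the rest of this list that share was highest in Calr, at 45.8% and 48.3%. Erap1, which trims peptides in the endoplasmic reticulum, was at 14.2 and 8.99 TPM, and the tapasin relative Tapbpl was lowest at 2.80 and 2.63 TPM.

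On gene TPM, the 5 immunoproteasome genes lay below H2-K1, H2-D1, B2m and H2-Q4 in both libraries. The activator subunit genes were Psme2 (51.7 and 68.0 TPM), the highest of the list in both libraries, and Psme1 (25.8 and 18.5 TPM). The catalytic subunit genes were Psmb10 (12.1 and 21.7 TPM), Psmb8 (5.45 and 6.05 TPM) and Psmb9 (2.68 and 3.05 TPM). Psmb10 was below Psme1 in replicate 1 and above it in replicate 2. The level of Psme2 differed between the quantifications, the second being 2.34 and 1.64 times the first after scaling. For H2-Q4 it was 0.986 and 0.915 times, so the order of Psme2 and H2-Q4 in replicate 2 depended on the quantification. Psmb9 had 37.1 and 139 counts, and Psmb8 64 and 228. Isoforms not annotated as protein-coding held 78.8% and 74.9% of the TPM of Psme2 and 69.1% and 77.1% in Psme1. That share was 82.3% and 85.5% in Psmb10, 71.4% and 91.2% in Psmb8, and 44.8% and 37.2% in Psmb9.

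Among genes that drive class I transcription, Irf1, an interferon regulatory factor, was the highest at 262 and 296 TPM. Isoforms not annotated as protein-coding held 14.2% and 17.5% of the TPM of Irf1, 64.8% and 64.0% in Nlrc5, and 70.6% and 68.4% in Nfyb. Nlrc5, the class I transactivator, was at 57.2 and 42.2 TPM. It acts with factors that bind class I promoters: Nfya was at 56.5 and 35.1 TPM, Rfx5 at 8.68 and 6.17 TPM, Nfyb at 2.18 and 2.06 TPM, Nfyc at 1.80 and 1.30 TPM, Rfxank at 1.12 and 1.17 TPM, and Rfxap at 1.00 and 1.03 TPM. The scaled second quantification was 3.45 and 2.70 times the first for Nfyc, and 5.66 and 2.02 times for Rfxap. Irf2, a second interferon regulatory factor, was at 20.1 and 12.7 TPM. Irf1 was thus higher than B2m in replicate 2 and lower in replicate 1, and the RFX subunits and the NF-Y partners of Nfya lay at the bottom of the list.

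Of 23 further class I genes annotated in the H2 region, not all of them protein-coding, 5 reached 1 TPM in both libraries. Among protein-coding genes, 8523 of 22015 did so. No count (0) in either library was found for 17 of the 23, and the share of all genes without counts was not computed. H2-K2, annotated as a transcribed pseudogene, was at 97.9 and 80.5 TPM with 1468 and 3687 counts. H2-T24 was at 13.4 and 9.94 TPM, H2-M2 at 6.54 and 7.02 TPM and H2-Q10 at 2.00 and 1.79 TPM. H2-Q5, annotated as a polymorphic pseudogene, was listed at 167 and 155 TPM, above H2-Q4. Most of that came from H2-Q5-201, a model of 172 bases with 9.64 and 49.2 counts, an effective length of 8.10 and 17.9 bases and 106 and 81.0 TPM. A few counts on so short a length carry the level of H2-Q5, as counts on H2-K1-215 carry part of that of H2-K1.

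H2-Q10 is the main partner of H2-Q7 in shared words (8.88% of the words of H2-Q7). Its scaled level was 5.36 and 4.52 times higher in the second quantification than in the first. All its counts in the first, 92.2 and 251, lay on the retained-intron model H2-Q10-203. The placement of reads between H2-Q7 and H2-Q10 was not tested further.

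Of 5 class I-like genes outside the H2 region, 4 were at 1 TPM or more in each library, against 8523 of 22015 protein-coding genes. Fcgrt, the neonatal Fc receptor, was the highest at 32.2 and 40.2 TPM. Hfe, a regulator of iron uptake, was at 7.73 and 5.47 TPM. Cd1d1, which presents lipids, was at 4.56 and 3.09 TPM, and Mr1, which presents vitamin metabolites, at 2.40 and 2.05 TPM. All 4 proteins pair with beta-2-microglobulin, and all 4 genes lay below B2m by more than the gap between replicates.

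**Figure D5:**
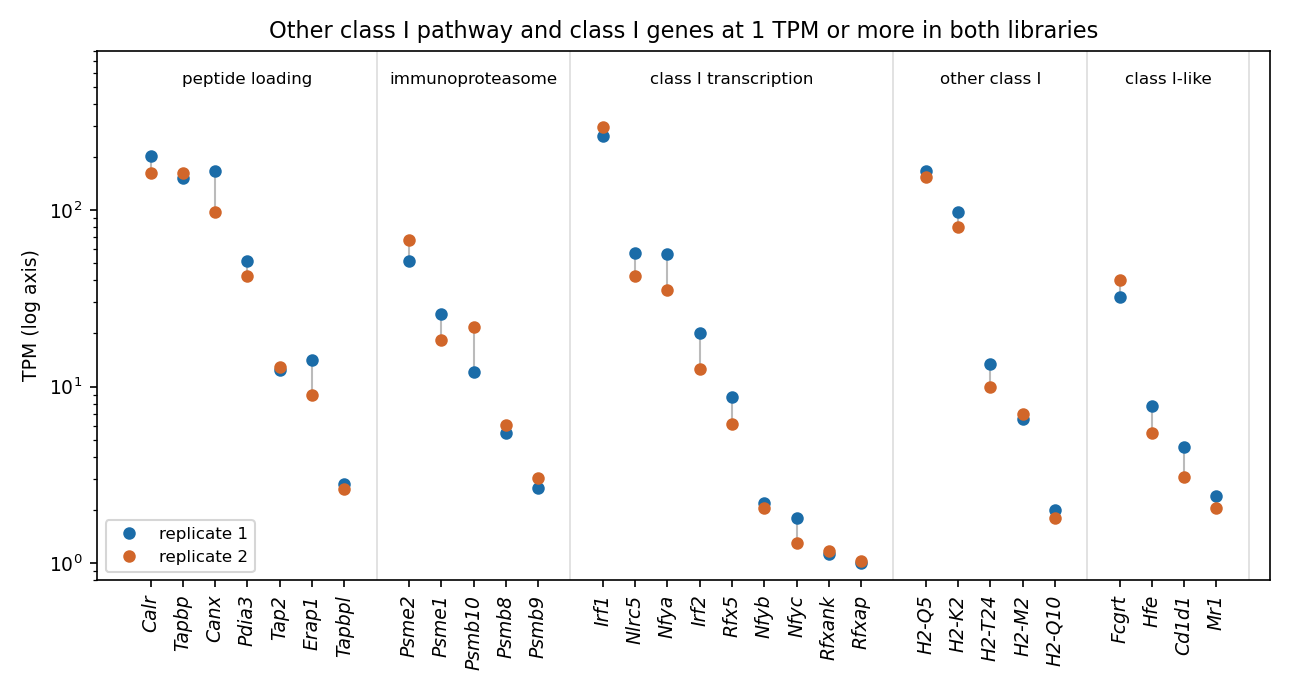
TPM (log axis) of the other class I pathway, class I and class I-like genes that were at 1 TPM or more in each library, grouped by list, with a line joining replicate 1 and replicate 2. Irf1 is highest at 262 and 296 TPM; Psme2 is the highest of the immunoproteasome list in both libraries, and H2-Q5 rests on an isoform with few counts.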

How the data were processed

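Total RNA was sequenced from 2 libraries of 1 group, and no comparison between conditions was possible. Per the deposited readme, the tables refer to mm10 and annotation M21. For each library the authors deposited a gene and a transcript table of expected counts and TPM from transcriptome alignments, in the column layout of RSEM, and a transcript table of estimated counts and TPM made from reads and an index, in the layout of kallisto. The first kind also holds, per the file headers, bounds and SDs of a posterior estimate, used here as a score of read placement. Program versions, read length, strand setting and trimming were not given in the sources used here.

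Members were found by symbol in the sixth field of the target identifiers. Rows of spike-in sequences (97) and rows with bare numbers (26248) were left out, which leaves 55536 gene rows. Summed TPM, counts past 10 TPM, the share of noncoding isoforms and ratios between libraries and between quantifications were computed in Python 3.11.15 with pandas 2.3.3, and TMM factors with edgeR 4.0.16 on rounded expected counts. Ratios were scaled to the median over genes averaging 1 TPM or more. The ratio script recovered large planted changes in simulated counts. These had counting noise only, with no isoform lengths or shared reads, so the check covers the calculation alone. Shared words were counted in the GENCODE M21 transcripts, in which all 10 members matched. Alternatives were another quantification, posterior mean TPM, rescaling to protein-coding genes, counts per 1000000, other filters, TMM and each library alone. All 10 members are named; genes of the pathway, class I and class I-like lists are named from 1 TPM upward in each library, and up to 3 isoforms per member; H2-T10, below that level, was named after its values were seen because H2-T22 shares its sequence, as was the isoform of H2-Q5. The members and lists were chosen with earlier results of these data known. Protein sequences were not used here.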

Additional observations from a re-analysis of the deposited data

How the results depend on the processing

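The summed level of the members moved by more than the spread between replicates with the second quantification (1460 TPM, against 3384) and with TPM rescaled over protein-coding genes (15863 TPM). It also did so in an alternative chosen after the data were seen, without H2-K1-215 and its counts (2511 TPM). The first quantification gave the median protein-coding gene 1.25 and 3.33 times the TPM of the second, so part of the first drop was shared with other genes. It was 2862 and 3906 TPM in each library alone. The count of members beyond 2-fold between replicates, 0 on gene TPM, became 1 with the second quantification, 1 on counts per 1000000 and 1 with TMM factors, H2-T23 each time. It was also 1 (H2-Q6) with no filter and 0.1 added to TPM, where zeros leave the median at no shift. Without scaling, 6 members differed beyond 1.5-fold between the quantifications in both libraries, against 0. The share of all genes past that line without scaling was not counted, so the 6 are not set apart from other genes. Other counts stayed within 1.5 times: members at 10 TPM or more ran from 6 (second quantification) to 10, pathway genes from 8 to 17, and members over 25% noncoding from 2 to 4. The scaled log2 ratio of H2-K1, -0.17 on gene TPM, was 0.39 on counts per 1000000 and 0.42 with TMM factors. With no filter, H2-Q4, H2-Q7, H2-T22 and B2m fell below 0, which left 4 of 10 members above it, against 8. No paired analysis was possible because there is 1 group. With 2 libraries and no control, the SD rests on 1 difference, and levels of genes with short isoforms (H2-K1, H2-D1-203, H2-Q5) depend on effective lengths.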
